A study of Mus musculus with 9 samples.

Results

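Astrocyte-like cells were looked for among the cells of mouse embryonic fibroblast (MEF) cultures on the way to induced neurons (iNs). A cell was taken as astrocyte-like when at least 3 of the 7 genes Aldh1l1, Gfap, Aqp4, Slc1a2, Slc1a3, Gjb6 and Mlc1 had at least 1 unique molecular identifier (UMI, 1 counted transcript) and Sox10 had 0 UMI. The rule was applied to barcodes with at least 3000 UMI of which at most 20% were mitochondrial. It found 1441 cells, 1.76% of the 81999 cells of the 9 libraries. The cells were thus chosen by measured values, and the levels of these 8 genes are a description and not a result.

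The MEFs were prepared from pooled mid-gestation embryos without head and heart, and all cultures, WT included, received lentivirus for the BAM reprogramming factors, among them Pou3f2 (also called Brn2) and Myt1l, which were switched on with doxycycline. The cultures were labelled WT, Per1-/- (allele Per1tm1Drw) or Per2-/- (allele Per2tm1Drw), with no other treatment, and were sampled on days 4, 7 and 10 of reprogramming. Each genotype and day had 1 library of 10x Genomics 3′ counts, so no value had a replicate within a day. No label ties a day to a particular preparation of MEFs.

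Several facts of the libraries touch the values below. The libraries held 126625215 to 353198559 UMI, and 86.1% to 94.5% of their barcodes passed the limits, except in WT on day 10, the shallowest library, where 55.4% passed. In that library the astrocyte-like cells had a median of 6450 UMI against 11815 in the other cells, whereas over all libraries the medians were 25972 and 20891. A doublet score marked 25.3% of the astrocyte-like cells and 10.0% of the other cells. Of the barcodes, 824 were kept in more than 1 library, and 45 astrocyte-like cells carried such a barcode. The matrices of day 10 were made with another gene table than those of days 4 and 7, so that day 10 and its gene table cannot be told apart. Per1 and Per2, the targeted genes, were not lower in the libraries labelled as their knockouts: Per1 stood at 8.42, 12.1 and 13.7 CPM (a gene's UMI relative to all UMI of the summed cells, on the usual counts-per-million scale) in the Per1-/- astrocyte-like cells of days 4, 7 and 10 and at 6.10, 6.10 and 10.6 CPM in WT. Per2 stood at 16.1, 9.99 and 9.38 CPM in Per2-/- and at 4.98, 4.78 and 6.75 CPM in WT. Whether the counted 3′ ends lie outside the deleted parts is not given in the sources used here, so these transcripts do not check the labels, and the genotypes below are those on the labels. At the protein level, the paper reports western blots in which MEFs of each knockout had lost the matching protein, PER1 or PER2.

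Astrocytes are glial cells of the brain and spinal cord that take up glutamate and potassium, hold water channels at their end feet and supply lipids and lactate to neurons. They arise from radial glia, the stem cells of the neural tube, under Notch signalling and the factors Sox9, Nfia and Nfib. Radial glia carry Fabp7, Sox2, Pax6 and the Notch target Hes5, and maturing astrocytes gain Aqp4, Slc1a2, Gfap and S100b. Schwann cells, the glia of peripheral nerves, share Fabp7 and Sox2 but depend on Sox10.

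The promoters of a Notch target, of a Notch-regulated fatty acid carrier and of the astrocyte filament gene are shown because these genes mark the early and the later glial programme in the values that follow. Each runs from 250 bases before to 50 bases after the start site on the strand of the gene (RefSeq, GRCm38.p6), and capitals mark TGGGAA, the core bound by the Notch effector RBPJ, or its reverse complement TTCCCA. The windows lie at chr4:154960673-154960972 (plus strand, Hes5), chr10:57784673-57784972 (plus strand, Fabp7) and chr11:102897151-102897450 (minus strand, Gfap).
Hes5: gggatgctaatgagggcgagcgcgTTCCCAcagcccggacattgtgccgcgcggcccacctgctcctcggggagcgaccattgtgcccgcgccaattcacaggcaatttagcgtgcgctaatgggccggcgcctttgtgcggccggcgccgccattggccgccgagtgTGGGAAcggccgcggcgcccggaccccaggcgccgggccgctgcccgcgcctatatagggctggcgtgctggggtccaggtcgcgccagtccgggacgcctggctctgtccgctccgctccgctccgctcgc
Fabp7: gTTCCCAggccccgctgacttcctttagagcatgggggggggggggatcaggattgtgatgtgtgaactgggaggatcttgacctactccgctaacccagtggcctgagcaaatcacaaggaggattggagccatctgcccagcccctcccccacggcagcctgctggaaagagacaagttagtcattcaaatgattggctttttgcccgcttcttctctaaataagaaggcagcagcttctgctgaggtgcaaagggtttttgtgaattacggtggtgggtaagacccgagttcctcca
Gfap: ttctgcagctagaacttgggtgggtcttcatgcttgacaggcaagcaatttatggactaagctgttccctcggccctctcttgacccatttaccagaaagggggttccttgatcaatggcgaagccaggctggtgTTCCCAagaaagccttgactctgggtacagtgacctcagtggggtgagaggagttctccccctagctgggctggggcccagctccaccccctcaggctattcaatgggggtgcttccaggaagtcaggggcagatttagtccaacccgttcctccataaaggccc
The Hes5 window held 2 copies, and those of Fabp7 and Gfap held 1 each. The same letters stood in 25.6% of all 32851 promoter windows of this length, and the window of Slc1a3 held none. A match of letters is a description of the sequence and not a measured binding site.

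The rule genes were seen in most members, apart from Gjb6. Slc1a3 (the glutamate transporter GLAST) had a UMI in 98.0% of the astrocyte-like cells, Aqp4 (the water channel of end feet) in 78.8%, Mlc1 (a membrane protein of astrocyte junctions) in 77.8%, Slc1a2 (the glutamate transporter GLT-1) in 77.0%, Aldh1l1 (a folate enzyme) in 71.8% and Gfap (the intermediate filament of astrocytes) in 58.5%. Gjb6, a gap junction protein, had a UMI in 1.39%, so 6 genes carried the rule. Macrophage-like cells, with at least 5 of 6 macrophage genes, had a median of 23910 UMI. They exclude members by definition, and the 80 members with as many macrophage genes are not among them, which lowers their shares. Their shares were 17.3% for Slc1a3, 9.76% for Aldh1l1, 2.79% for Slc1a2, 1.48% for Gfap, 1.27% for Aqp4 and 0.390% for Mlc1. With every cell thinned to 3000 UMI the members' shares were 71.5% for Slc1a3, 60.3% for Aqp4, 36.2% for Slc1a2, 35.7% for Mlc1, 34.9% for Aldh1l1 and 34.5% for Gfap. The members differed widely in the amount of each transcript: Aqp4 had a median of 8 UMI and a highest value of 571 UMI in a cell, and Gfap a median of 1 and a highest value of 466 UMI.

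Of the members, 391 had just 3 rule genes, 246 had 4, 309 had 5, 491 had 6 and 4 had all 7. Cells at the limit were poorer in glial transcripts than the rest. Fabp7, a fatty acid carrier of radial glia that the rule did not use, stood at 7197 CPM in the cells with 5 or more rule genes, at 4461 CPM with 4 and at 811.4 CPM with 3. In the 3774 cells just outside the limit, with 2 rule genes and no Sox10, it stood at 33.8 CPM. Hes5 followed the same order, with 212.5, 86.8, 13.0 and 0.922 CPM. A further 78 cells had at least 3 rule genes and Sox10, and their Fabp7 level was 1994 CPM.

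The 5 marker genes that gave the cells their name were higher in the astrocyte-like cells than in the other cells in all 9 libraries. Gfap stood at 244.1, 317.3 and 178.5 CPM in WT, Per1-/- and Per2-/- on day 4, at 602.1, 980.4 and 326.4 CPM on day 7 and at 596.8, 362.3 and 386.9 CPM on day 10. The lowest value of a genotype was on day 4 in each case, and the other cells together held 1.12 CPM. Aqp4 stood at 798.8, 957.0 and 646.9 CPM on day 4, at 1984, 2349 and 657.2 CPM on day 7 and at 1593, 1036 and 1148 CPM on day 10, against 1.42 CPM in the other cells. Slc1a2 stood at 86.5, 153.6 and 149.2 CPM on day 4, at 307.1, 776.6 and 199.5 CPM on day 7 and at 324.7, 414.7 and 266.4 CPM on day 10. For Slc1a2 all 6 libraries of days 7 and 10 lay above the 3 of day 4. Slc1a3 ranged from 306.7 to 825.9 CPM and Aldh1l1 from 67.5 to 279.5 CPM, and for both the lowest values were those of Per1-/- on days 7 and 10. The levels of these and of glial genes outside the rule are drawn by day.

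**Figure D1:**
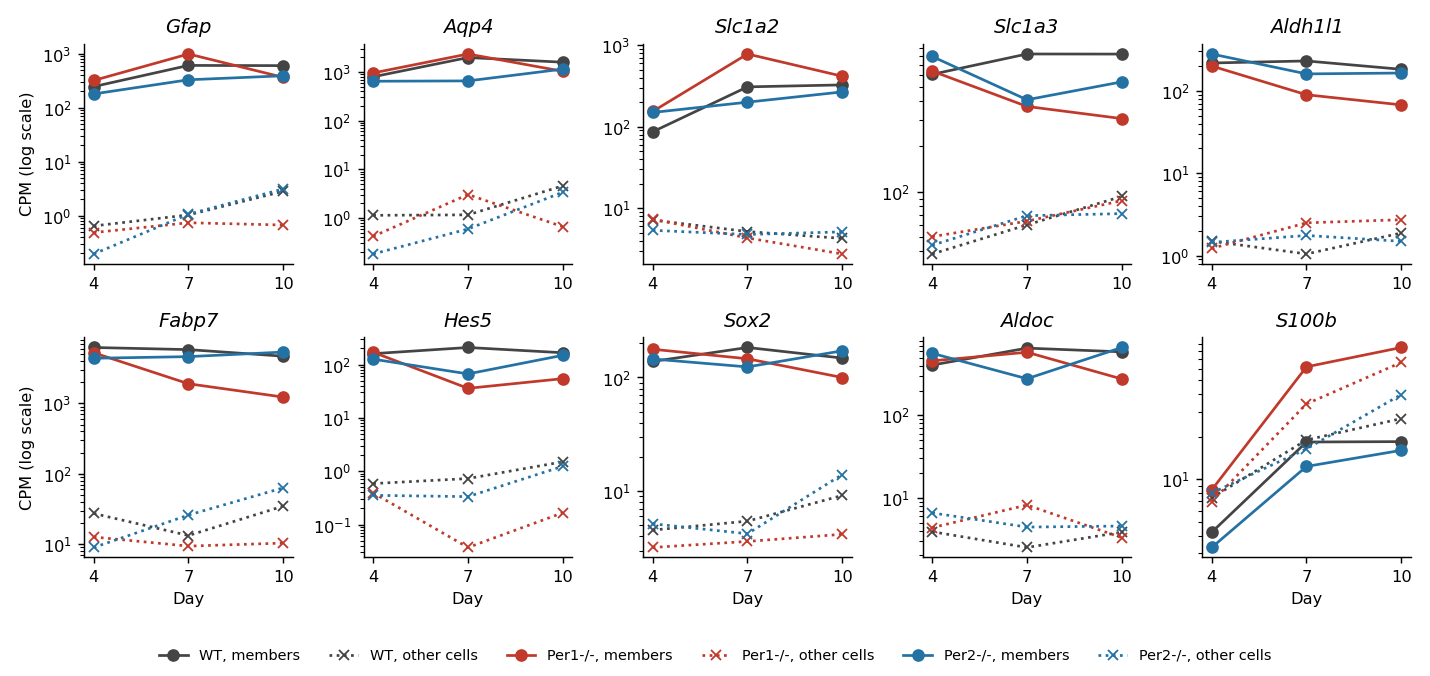
Levels of 10 genes in CPM (log scale, a separate axis range for each gene) by day, in the summed astrocyte-like cells (circles, solid lines) and in the summed other cells (crosses, dotted lines) of each of the 9 libraries, coloured by genotype label. Gfap, Aqp4, Slc1a2, Slc1a3 and Aldh1l1 chose the cells, and S100b is the gene whose members and other cells overlap, between 3.31 and 84.9 CPM in the members.

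Genes of astrocytes and radial glia that the rule did not use were high as well. Against the other cells of the same libraries, 9542 of 18197 genes differed at an adjusted p of 0.05 in edgeR, which is 52.4% (22.3% higher and 30.1% lower in the astrocyte-like cells), and since the same cells' counts chose the members nothing is read from these numbers. Of the 38 further astrocyte genes listed, 30 were higher, 2 were lower and the median log2 fold was 2.52, where the median of all genes was -0.07. Of the 22 radial glia and progenitor genes 20 were higher, with a median log2 fold of 3.52. The fold changes below are log2 folds ± SE over the 9 libraries, each higher in 9 of 9 libraries unless stated, and the CPM beside them are means over libraries.

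Among the radial glia genes, Fabp7 stood at 4373 CPM in the astrocyte-like cells and 22.8 CPM in the others (log2 fold 7.60 ± 0.32). Hes5 stood at 126.3 against 0.592 CPM (7.79 ± 0.25), and Rfx4, a transcription factor of the neural tube, at 89.1 against 0.343 CPM (8.02 ± 0.28). Sox2 differed by 4.64 ± 0.20 and Pax6 by 7.27 ± 0.19, both being factors that keep neural stem cells. Nes, the filament of progenitors, differed by 1.5 ± 0.21, whereas Vim, a filament that fibroblasts also hold, stood at 2136 against 2347 CPM and was higher in 2 of 9 libraries. Among Notch genes, the receptor Notch1 differed by 1.94 ± 0.14 and the target Hey1 by 3.56 ± 0.21, while the ligand Jag1 was lower by a log2 fold of -0.90 ± 0.09 in all 9 libraries. Of the 15 Notch pathway genes 9 were higher and 4 lower, with a median log2 fold of 0.59.

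The working parts of astrocytes showed different pictures. Of the 11 genes for potassium, water and ion transport 9 were higher, with a median log2 fold of 4.10, and Kcnj10, the potassium channel Kir4.1, stood at 25.7 against 0.475 CPM. Of the 7 genes for GABA and glycine handling 6 were higher, and the GABA transporter gene Slc6a11 stood at 22.8 against 0.035 CPM. Hepacam, an adhesion protein that binds Mlc1, stood at 44.0 against 0.134 CPM, and Bcan, a matrix proteoglycan of the brain, at 128.3 against 0.438 CPM. Aldoc, the brain aldolase, stood at 498.7 against 4.61 CPM, and Glul, glutamine synthetase, at 179.6 against 40.5 CPM, although Glul was also at 199.9 CPM in the pooled macrophage-like cells. Gja1 (connexin 43), the main astrocyte connexin, stood at 118.3 CPM in the astrocyte-like cells and 118.0 CPM in the others. S100b, a calcium binding protein of astrocytes and Schwann cells, stood at 25.3 CPM against 25.0 CPM and was higher in 3 of 9 libraries.

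Of the largest differences by the rule for named genes, those not yet given were in Glycam1 (63.3 against 0.058 CPM), a mucin-like protein gene, in Mmd2 (64.8 against 0.300 CPM) and in Aplnr, the apelin receptor (23.5 against 0.071 CPM), with the RNA genes Gm35040 and Mir9-3hg, the host of a neural microRNA. Glycam1 and Aplnr were uneven over the members. In the Myoc and Dbx2 sub-cluster described below they stood at 314.2 and 138.0 CPM, against 26.1 and 9.05 CPM in the other members. Of the differences in the other direction, the largest were in macrophage genes such as Cd300a, Pf4, Cd33 and Pld4 and in the fibroblast genes Mmp3 and Abi3bp. All 12 macrophage markers and 13 of 14 fibroblast markers were lower in the astrocyte-like cells, as were 18 of 22 interferon response genes and 15 of 24 TNF and NF-kB response genes, where 30.1% of all genes were lower. Of 30 cell cycle genes 26 were higher, and Mki67 stood at 89.8 against 45.3 CPM. The members were uneven in this. In the sub-clusters described below Mki67 stood at 521.5 CPM in the cycling one (158 cells) and at 1.94 to 135.8 CPM in the others. The largest sub-cluster held 7.89 CPM. The reprogramming factor Pou3f2 stood at 284.8 against 357.4 CPM, and endogenous and viral transcripts were not separated.

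Dorsoventral genes of the neural tube were among those that were higher. Of 16 tested dorsoventral genes 13 were higher, among them Pax3 (75.7 against 3.46 CPM) and Zic1 (152.0 against 14.8 CPM), both dorsal genes, and Nkx6-1 (7.66 against 0.841 CPM), a ventral gene. Zic1 was higher in 8 of 9 libraries. Of 27 Hox genes 11 were higher and 3 lower, where 22.3% of all genes were higher and 30.1% lower, and the median log2 fold was 0.47. Olig2, a factor of motor neuron and oligodendrocyte precursors, stood at 7.04 against 0.029 CPM. In the sub-clusters described below it stood at 38.55 CPM in that of Myoc and Dbx2, at 34.5 CPM in that of Six3 and Slco1c1 and at 0 to 5.99 CPM in the others. The oligodendrocyte lineage list as a whole had 4 genes higher and 4 lower of 9 tested.

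Schwann-like and neuron-like cells of the same cultures share part of this programme, and both sets were also chosen on these counts, so the differences are given without a p. Schwann-like cells (Sox10 and at least 2 of 5 Schwann cell genes, Erbb3, Cdh19 and Foxd3 among them) numbered 3514. Against them 8353 of 14021 genes differed at the edgeR threshold (59.6%). Sox2 was close in both, at 148.3 CPM in the astrocyte-like and 116.0 CPM in the Schwann-like cells and higher in 8 of 9 libraries, while Fabp7 stood at 4373 against 259.5 CPM. Astrocyte genes that separated them were Aldoc (498.7 against 8.76 CPM), Bcan (128.3 against 1.77 CPM), A2m, a protease inhibitor (54.7 against 0.560 CPM), Thrsp, a lipogenic factor (57.7 against 0.505 CPM) and Adora1, the adenosine A1 receptor (43.0 against 0.623 CPM). In the other direction stood Gfra3, a co-receptor for GDNF family ligands (0.139 against 51.6 CPM), Gjc3, a connexin of myelinating glia (0.709 against 114.0 CPM), Gpr17 (0.281 against 70.3 CPM) and Lgi4, a Schwann cell myelination signal (1.07 against 112.0 CPM). S100b was lower in the astrocyte-like cells in all 9 libraries, 25.3 against 110.6 CPM, and so were Vim and Nes.

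Neuron-like cells (at least 5 of 8 neuronal genes, no Sox10, not members) numbered 8563, and 10225 of 15050 genes differed from the astrocyte-like cells (67.9%). Of the members, 144 (9.99%) also had at least 5 of these 8 genes and were counted as astrocyte-like. Fabp7 stood at 4373 against 9.85 CPM and Kcnj10 stood at 25.7 against 0.070 CPM. The reprogramming factor Pou3f2 ran the other way, with 284.8 CPM in the astrocyte-like and 1374 CPM in the neuron-like cells, and was lower in all 9 libraries. Dll1 and Dll3, Notch ligands of differentiating neurons, were lower in all 9 libraries (log2 fold -2.46 ± 0.14 and -2.74 ± 0.07), while the receptor Notch1 was higher (3.64 ± 0.14). Secretory and neuropeptide genes such as Gal, Scg2 and Chga were also lower in all 9 libraries. All 30 cell cycle genes were higher in the astrocyte-like cells, where 33.8% of all genes were. The cycling sub-cluster described below was part of these cells.

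The astrocyte-like cells were not of 1 kind. They were clustered by themselves, which gave 11 sub-clusters, described here by their leading genes and levels without a test because the same counts formed them. Of these, 3 had at least 10 raised markers of the fibroblast, neuron or macrophage lists, are called below the 3 sub-clusters led by other classes, and held 418 members (29.0%): the sub-cluster of Ly6c1 and Dpt (186 cells) had 4914 CPM of the collagen gene Col1a1, that of Myt1l, Nts and Tac1 (178 cells) led with neuronal genes, and that of Ms4a7 and C1qc (54 cells) led with macrophage genes. The doublet score marked 44.6%, 59.0% and 81.5% of their cells, against 1.61% to 36.1% in the other 8 sub-clusters. These 3 sub-clusters made up 16.7% of the members in WT on day 10 and 56.8% in Per1-/- on day 10, the lowest and the highest of the libraries. Their cells remained members by the rule, and results below are also given without them.

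The largest sub-cluster, led by Crym and Nppc, held 328 cells with a median of 6 rule genes. It had 11470 CPM of Fabp7, 302.8 CPM of Hes5, 177.9 CPM of Pax3 and 679.6 CPM of Gfap, but 4.76 CPM of S100b and 3.38 CPM of Agt. The sub-cluster of Esco2 and Kif11 (158 cells) was cycling by its transcripts, with 521.5 CPM of Mki67 and 1063 CPM of Top2a, and had 104.9 CPM of Gfap.

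The sub-cluster led by Myoc and Dbx2 (107 cells) had the most astrocyte markers raised, 22 of them, against 0 to 12 in the other 10 sub-clusters. Its levels were 1875 CPM for Gfap, 1401 CPM for Slc1a2, 4624 CPM for Aqp4, 8847 CPM for Apoe, the lipid carrier of astrocytes, 97.5 CPM for S100b and 56.4 CPM for Agt (angiotensinogen). It also held transcripts known from reactive astrocytes, the complement gene C3 at 79.7 CPM and Serpina3n at 86.8 CPM, and the trunk-level Hox genes Hoxb8 (119.2 CPM) and Hoxc9 (72.6 CPM). The dorsal gene Pax3 stood at 50.9 CPM there, against 177.9 CPM in the Crym and Nppc sub-cluster.

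Small sub-clusters carried other positions along the neural tube. That of Six3 and Slco1c1 (43 cells) had the forebrain genes Six3 (128.7 CPM) and Lhx2 (96.1 CPM) with 5088 CPM of Apoe, in cultures made from embryos without heads. That of Wif1 and Ntn1 (49 cells) had the floor plate genes Shh (78.4 CPM) and Foxa2 (81.7 CPM), En2 (146.8 CPM) and the cilia regulator Foxj1 (231.9 CPM), with 0 UMI of Pax6 and 3.31 CPM of Gfap, a count of 3 UMI. That of Hoxb13 and Hoxc12 (46 cells) had the tail-end genes Hoxb13 (127.2 CPM) and Hoxc13 (160.6 CPM) and 18.4 CPM of Gfap, and 35 of its cells were from Per2-/- on day 7. The levels over all sub-clusters are drawn as a map.

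**Figure D2:**
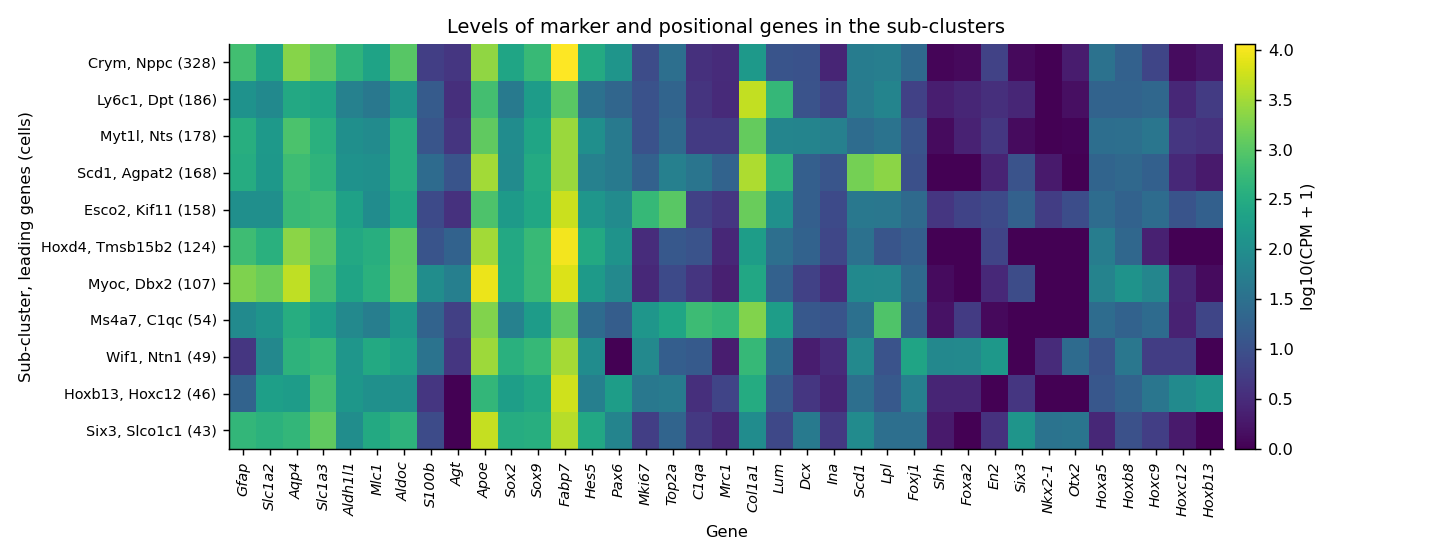
Levels of marker and positional genes (columns) in the 11 sub-clusters of the astrocyte-like cells (rows, named by leading genes with the number of cells), as log10 of CPM plus 1 (colour scale). The Myoc and Dbx2 row is the brightest for Gfap (1875 CPM), Slc1a2 and Aqp4, and forebrain, floor plate and posterior Hox genes each stand out in a row of their own.

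Some sub-clusters followed a day or a library. The sub-cluster of Hoxd4 and Tmsb15b2 held 124 cells, 122 of them from day 10. Its leading genes included Hoxd4, Rnasek and Atp6v0c, which rose in the other cells of day 10 as well. There the log2 fold against day 4 was 5.77 for Hoxd4, 4.49 for Tomm6, 6.76 for Fdx1l and 6.68 for Hgs, also leading genes. Since day 10 and its gene table cannot be told apart, Hoxd4 is not read as a position here. The sub-cluster had 9560 CPM of Fabp7, 288.8 CPM of Hes5, 222.0 CPM of Pax3 and 622.1 CPM of Gfap, near the levels of the Crym and Nppc sub-cluster. The sub-cluster of Scd1, Agpat2 and Lpl, genes of fat synthesis and uptake, held 168 cells, of which 143, 6 and 17 were from WT, Per1-/- and Per2-/- on day 10. It had 0 raised markers of the astrocyte and of the radial glia lists and stays unnamed. No list of fat cell genes was used, so it was not counted among the 3 sub-clusters above.

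That sub-cluster joined cells of unlike kinds. Its fat genes came from few cells: 25 cells of the knockout labels held 3289 UMI of Scd1 and 4400 UMI of Lpl, and the 143 cells of WT on day 10 held 30 and 95 UMI. Adipoq, a fat hormone gene, had 757 UMI in 7 of the 25 cells and 0 UMI in the 143. The 143 WT cells had a median of 4843 UMI, 45.5% of them had just 3 rule genes, and Col1a1 stood at 6624 CPM in them. They also held glial transcripts, with a UMI of Fabp7 in 94.4%, of Aqp4 in 88.8% and of Gfap in 56.6% of them. In these WT cells Mrpl53 and Cpne1 stood at 86.4 and 48.8 CPM. Both were leading genes of the sub-cluster and rose in the other cells of day 10 as well (log2 folds 6.445 and 5.375). The 6 cells of Per1-/- on day 10 held a UMI of Fabp7 in 1 cell, and the 17 of Per2-/- on day 10 in 15 cells.

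**Figure D3:**
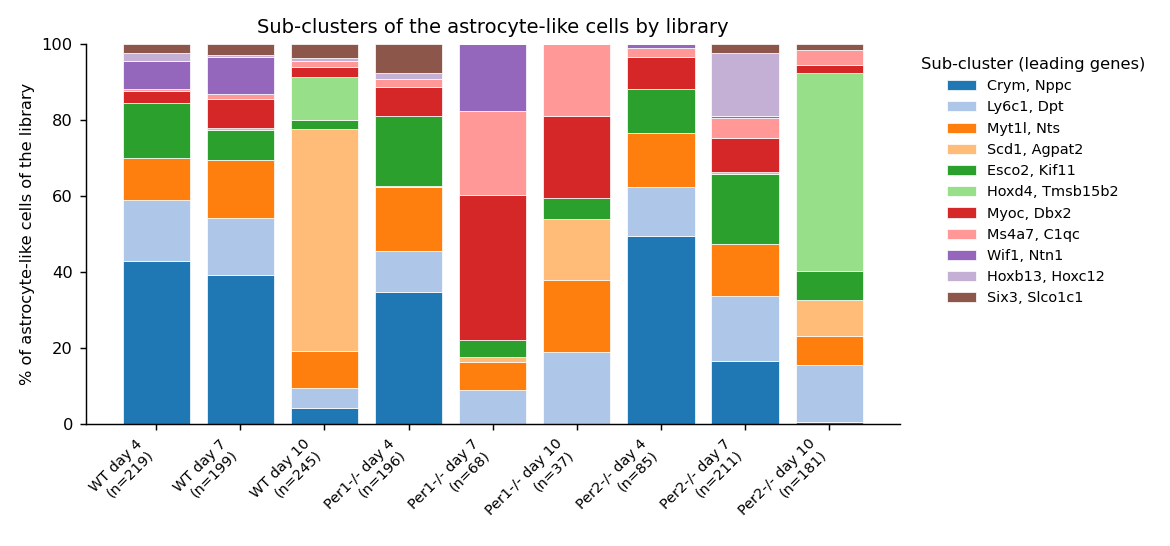
Share of the astrocyte-like cells of each library (% of members, bars stacked to 100%) in the 11 sub-clusters, named by leading genes, with the number of members under each bar. The Crym and Nppc share lies between 34.7% and 49.4% in the 3 libraries of day 4 and is 0% in Per1-/- on days 7 and 10, where 68 and 37 cells were members.

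The Crym and Nppc sub-cluster held 42.9%, 34.7% and 49.4% of the members of WT, Per1-/- and Per2-/- on day 4. On day 7 it held 39.2%, 0% and 16.6%, and on day 10 it held 4.08%, 0% and 0.55%. The 0 of 68 and 0 of 37 members of Per1-/- allow shares of up to 4.41% and 8.11% by counting error alone. The Hoxd4 and Tmsb15b2 sub-cluster, near it in Fabp7 (9560 CPM) and Hes5 (288.8 CPM), differed by label on day 10. It held 11.4%, 0% and 51.9% of the members of WT, Per1-/- and Per2-/- on that day. The Myoc and Dbx2 sub-cluster held 38.2% of the members of Per1-/- on day 7 and 21.6% on day 10, which were 26 and 8 cells, and 2.21% to 9.0% in the other 7 libraries. With 1 library for each genotype and day, and with sub-clusters formed on these counts, these shares were not tested.

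How common the astrocyte-like cells were differed between libraries. They were 2.52% of the cells of WT on day 4 (219 cells, exact 95% interval 2.20% to 2.87%), 2.32% on day 7 (199 cells, 2.01% to 2.66%) and 3.58% on day 10 (245 cells, 3.15% to 4.05%). In Per1-/- they were 1.80% (196 cells, 1.56% to 2.07%), 1.06% (68 cells, 0.826% to 1.34%) and 0.404% (37 cells, 0.285% to 0.556%). In Per2-/- they were 1.02% (85 cells, 0.816% to 1.26%), 1.89% (211 cells, 1.65% to 2.16%) and 1.52% (181 cells, 1.30% to 1.75%). The intervals cover counting error only. The WT share was the highest of each day, and the Per1-/- share lay below the Per2-/- share on days 7 and 10 but above it on day 4.

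**Figure D4:**
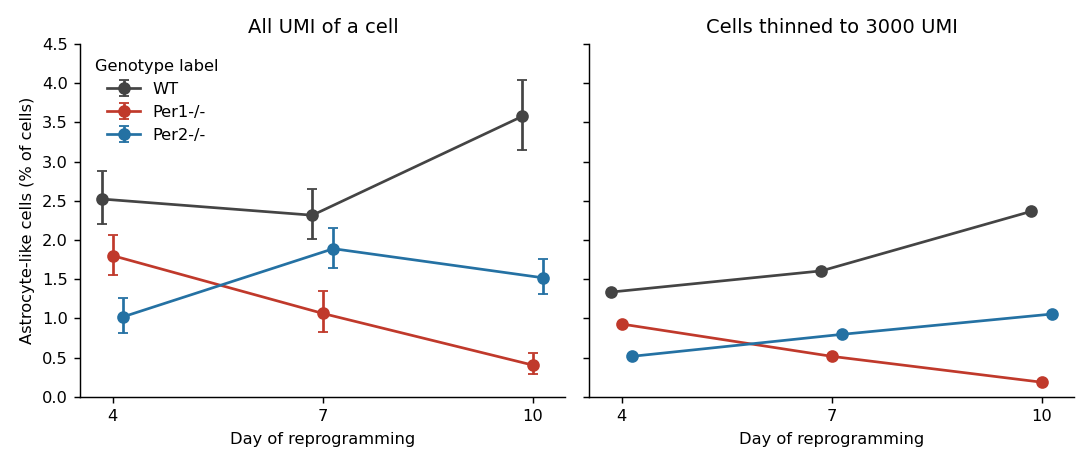
Astrocyte-like cells as a percent of the cells of each library by day, coloured by genotype label, from all UMI of a cell with exact 95% binomial intervals for counting error (left) and with each cell thinned to 3000 UMI (right). The WT share is the highest on each day in both panels and the Per1-/- share goes from 1.80% on day 4 to 0.404% on day 10 on the left.

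The WT share was 1.40, 2.18 and 8.86 times the Per1-/- share on days 4, 7 and 10, and the Per2-/- share 0.567, 1.78 and 3.76 times. Averaged over days, the Per1-/- share was 1.05 percentage points below the mean of WT and Per2-/-, a difference of -1.05, and it did not pass the exact permutation test of the 27 assignments of the label within days (two-sided p = 0.185, 0.370 when adjusted over the 2 tests of shares). The smallest p this test allows is 0.037. Of the 245 members of WT on day 10, 143 lay in the unnamed sub-cluster of Scd1, Agpat2 and Lpl, and as given above these were cells of low depth with few UMI of its fat genes and with glial transcripts. Without that sub-cluster, an alternative chosen after seeing the data, the shares of day 10 were 1.49% in WT, 0.338% in Per1-/- and 1.37% in Per2-/-, the WT share was 4.40 times the Per1-/- share and the Per2-/- share 4.06 times, and the shares of days 4 and 7 hardly moved, since the sub-cluster held 0 or 1 member there in each library. The Per1-/- share then lay 0.71 points below the mean of the other labels, a difference of -0.71 (exact permutation test, two-sided p = 0.148). A common trend over days did not pass: the share changed by 0.176, -0.233 and 0.0827 percentage points per day in WT, Per1-/- and Per2-/-, with a sum of 0.026 (exact permutation test over all orders of the days within genotypes, two-sided p = 0.889, smallest possible p 0.0093).

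Thinning lowered all shares. At 3000 UMI a cell, they were 1.34%, 1.61% and 2.37% in WT, 0.928%, 0.516% and 0.186% in Per1-/- and 0.517%, 0.797% and 1.06% in Per2-/-, so WT stayed highest on each day and Per1-/- lowest on days 7 and 10. Without the 3 sub-clusters led by other classes they were 1.83%, 1.58% and 2.98% in WT, 1.27%, 0.656% and 0.175% in Per1-/- and 0.721%, 1.21% and 1.11% in Per2-/-. Among all cells of the same libraries the macrophage-like share was 2.35%, 8.25% and 14.8% in WT, 4.80%, 26.6% and 19.6% in Per1-/- and 3.16%, 14.3% and 11.9% in Per2-/-, and a larger share of 1 class lowers the shares of the others. Its part in the differences was not tested.

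Within the astrocyte-like cells, the genotype comparison asked which genes differed over the 3 days, with the summed counts of each library as 1 sample. Between Per1-/- and WT 81 of 13555 genes passed (0.598%), 80 of them higher in Per1-/- (0.59%) and 1 lower. The count and the split depended on the setting: leaving out 1 library gave 14 genes, all higher (without WT day 7), to 320 genes, 227 higher and 93 lower (without Per1-/- day 4), and with no filter on low counts 256 were higher and 46 lower. Macrophage genes were prominent among them: 11 of 12 macrophage markers were higher, with a median log2 fold of 2.51 where the median of all genes was 0.00. Among the named differences were those in Fcgr3, an antibody receptor (3.27 ± 0.23, adjusted p = 0.00129), Cybb, the oxidase of phagocytes (2.95 ± 0.22, adjusted p = 0.00144), and Trem2, a lipid receptor of microglia and macrophages (2.77 ± 0.17, adjusted p = 0.000873), with Ccl9, Wfdc17, Ms4a6d, Cd93 and Fcrls. Cd36 was named too. In Per1-/- it stood at 30.3, 84.35 and 419.7 CPM in the members of days 4, 7 and 10, against 37.6, 44.4 and 67.6 CPM in the other cells. Trem2 stood at 3.36, 13.0 and 24.9 CPM in WT and at 23.8, 103.3 and 140.5 CPM in Per1-/- on days 4, 7 and 10. In the other cells of the same libraries it stood at 19.4, 83.2 and 83.3 CPM in WT. There it stood at 58.9, 260.1 and 237.9 CPM in Per1-/-, also higher on each day, and this was not tested. In the astrocyte-like cells Trem2 was also the 1 gene of 13555 that passed between Per2-/- and WT (0.00738%), where it stood at 15.1, 50.4 and 64.6 CPM (1.82 ± 0.17, adjusted p = 0.0354, higher on 3 of 3 days), a call that held in 5 of 15 settings.

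Some of the members carried macrophage transcripts, and their part in these calls was not tested. The 12 macrophage markers summed to 53.1, 220.0 and 521.5 CPM in WT on days 4, 7 and 10, to 312.4, 1965 and 2020 CPM in Per1-/- and to 187.0, 611.4 and 750.5 CPM in Per2-/-, and over the members none of the 12 was at 0 (in WT on day 4, Itgam was). Of the members, 80 had at least 5 of 6 macrophage genes. Without the cells marked as doublets 2 genes passed, Adig and Plin1, and without the 3 sub-clusters led by other classes 5 genes passed, Adig, Plin1, Hp, Adipoq and Aldh1a7, so that 0 macrophage markers passed in either (11 and 8 of the 12 were tested, with median log2 folds of 1.2 and 0.24). The Ms4a7 and C1qc sub-cluster was left out because these macrophage markers were raised in it. Their loss without the 3 sub-clusters therefore follows from that choice, and nothing is read from it. Adig, Plin1 and Adipoq are genes of fat cells, and these 5 names were read off after the values were seen. Without doublets the marker sum was still highest in Per1-/- on each day, at 34.4, 232.3 and 1063 CPM against 14.3, 150.0 and 354.4 CPM in WT and 10.4, 56.0 and 463.4 CPM in Per2-/-. Without the 3 sub-clusters it was 30.8, 87.8 and 39.3 CPM in Per1-/-, 16.1, 30.7 and 218.9 CPM in WT and 12.3, 58.9 and 89.3 CPM in Per2-/-, highest in Per1-/- on days 4 and 7 and lowest on day 10.

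**Figure D5:**
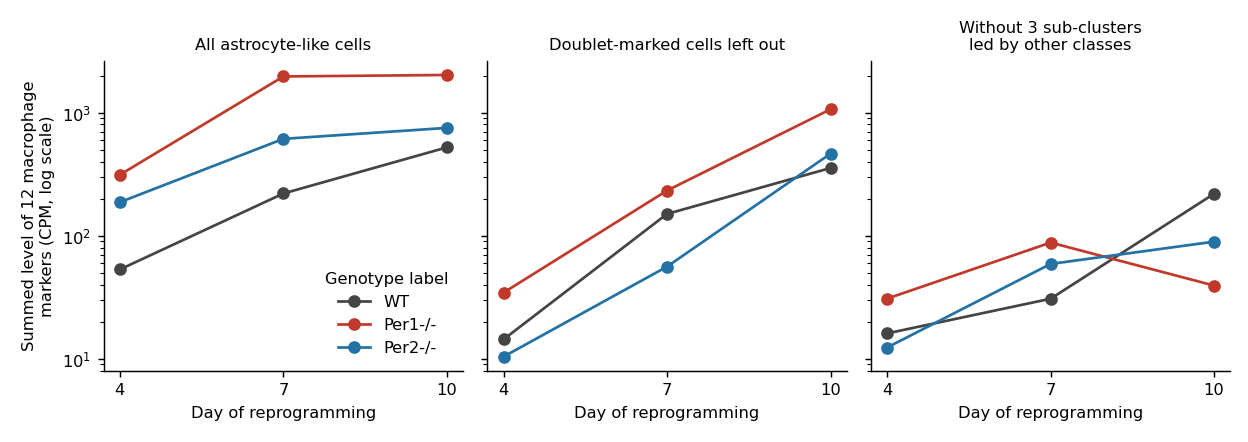
Summed level of 12 macrophage markers in CPM (log scale) in the astrocyte-like cells of each library by day, coloured by genotype label, in all members, without cells marked as doublets, and without the 3 sub-clusters led by other classes. Per1-/- lies highest on each day among all members (312.4, 1965 and 2020 CPM) and without doublets (34.4, 232.3 and 1063 CPM), and lowest on day 10 in the last panel. The cells left out in the last panel include a sub-cluster chosen by these markers.

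Of 36 tested astrocyte genes 1 was higher in Per1-/- than in WT, where 0.59% of all genes were: S100b, with 8.42, 62.1 and 84.9 CPM in Per1-/- and 4.23, 18.3 and 18.4 CPM in WT on days 4, 7 and 10 (log2 fold 1.72 ± 0.24, adjusted p = 0.0212, higher on 3 of 3 days). Without doublets its fold was 2.0 with an adjusted p of 0.148, and without the 3 sub-clusters 1.83 with an adjusted p of 0.188. Olig1, an oligodendrocyte lineage factor, stood at 42.2, 117.9 and 118.1 CPM in Per1-/- and 7.84, 18.6 and 15.8 CPM in WT (2.71 ± 0.45, adjusted p = 0.0435). Hoxa5 (1.34 ± 0.22, adjusted p = 0.0382) and H2-D1, a class I histocompatibility gene of the A1 reactive list (1.17 ± 0.18, adjusted p = 0.0347), were also higher. Each of these 4 genes passed in 6 to 8 of the 15 settings tried, and none of them passed without doublets. The lists that held Olig1, Hoxa5 and H2-D1 had 8, 27 and 12 tested genes. The mix of sub-clusters differed as well: that of Myoc and Dbx2, with 97.5 CPM of S100b, held 38.2% of the Per1-/- and 7.54% of the WT members on day 7, and that of Crym and Nppc, with 4.76 CPM, held 0% and 39.2%. Its part in the difference of S100b was not tested.

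Crabp1, a retinoic acid binding protein that fibroblasts and neurons of the embryo hold, was the 1 gene lower in Per1-/-, with 160.1, 49.3 and 41.2 CPM against 373.7, 132.0 and 117.6 CPM in WT (log2 fold -1.35 ± 0.15, adjusted p = 0.00816). It was lower in the other cells of Per1-/- as well, at 630.6, 238.6 and 221.0 CPM against 724.6, 555.1 and 369.6 CPM in WT, which was not tested. In the members without doublets its log2 fold was -0.68 with an adjusted p of 0.760, and without the sub-cluster of Scd1, Agpat2 and Lpl -1.02 with an adjusted p of 0.172. Plin1, the lipid droplet coat of fat cells, was higher in Per1-/- (7.25 ± 0.97, adjusted p = 0.0193), with 0.248, 17.5 and 131.2 CPM against 0.125, 0.165 and 0.519 CPM. Without that sub-cluster Plin1 fell under the filter on low counts and gave no value. These levels rest on few cells, since Per1-/- had 68 members on day 7 and 37 on day 10.

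Fabp7 and Hes5, both genes of the early glial programme, had lower values in Per1-/- than in WT on the later days but did not pass. Fabp7 stood at 5228, 1897 and 1227 CPM in Per1-/- and 6212, 5796 and 4674 CPM in WT on days 4, 7 and 10 (log2 fold -1.15 ± 0.39, adjusted p = 0.390), and Per2-/- stood at 4368, 4607 and 5348 CPM. Hes5 stood at 169.8, 35.8 and 54.3 CPM in Per1-/- and 159.8, 208.7 and 166.4 CPM in WT (-1.26 ± 0.46, adjusted p = 0.455), and Per2-/- stood at 126.1, 66.7 and 148.9 CPM, on day 7 also below WT. The Crym and Nppc sub-cluster, with 11470 CPM of Fabp7 and 302.8 CPM of Hes5, held 0% of the Per1-/- members on days 7 and 10, and 39.2% and 4.08% of those of WT. That of Hoxd4 and Tmsb15b2 had 9560 CPM of Fabp7 and 288.8 CPM of Hes5. On day 10 it held 11.4% of the WT, 0% of the Per1-/- and 51.9% of the Per2-/- members. The part of either sub-cluster in these values was not tested. Sox2 showed a smaller gap, with 99.9 (day 10) to 177.2 CPM in Per1-/- and 138.4 to 183.6 CPM in WT (-0.13 ± 0.24, adjusted p = 0.954). The lists for radial glia (0 of 21), Notch (0 of 15), glutamate (0 of 7), potassium, water and ion transport (0 of 10), the clock (0 of 21), the interferon response (0 of 22), the TNF and NF-kB response (0 of 19) and the cell cycle (0 of 30) held no gene that passed between Per1-/- and WT in edgeR. Of the 145 genes of these 8 lists 18 had an unadjusted p under 0.05 and DESeq2 called 2, where of all 13555 genes 1203 had one and DESeq2 called 249. Further lists also held no gene that passed in edgeR, and some were less quiet. Of 13 dorsoventral genes 7 had an unadjusted p under 0.05 and DESeq2 called 3. Of 15 neuron genes 5 had one and DESeq2 called 3. Between Per1-/- and Per2-/- 0 of 13555 genes passed in edgeR (0%), although 1174 had an unadjusted p under 0.05 and DESeq2 called 65. All 12 macrophage markers had one there and DESeq2 called 8. Between Per2-/- and WT 10 of these 12 had one and DESeq2 called 5. A gene that did not pass is not shown to be alike in the genotypes.

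Over days a few genes of mature astrocytes rose. Between days 7 and 4, 62 genes passed (0.457%), 55 of them higher on day 7 (0.406%), and between days 10 and 4, 343 genes passed (2.53%), 292 of them higher on day 10 (2.15%). Of 36 astrocyte genes 2 passed on day 7 and 4 on day 10, all higher, with list medians of 0.49 and 0.48 where the medians of all genes were 0.01 and 0.02. S100b stood at 4.23, 8.42 and 3.31 CPM in WT, Per1-/- and Per2-/- on day 4, at 18.3, 62.1 and 12.3 CPM on day 7 and at 18.4, 84.9 and 16.0 CPM on day 10. All values of the later days lay above those of day 4 (day 10 against day 4, 2.75 ± 0.28, adjusted p = 0.00116), and it passed on day 10 in 15 of 15 settings. The mix of sub-clusters moved with the days: that of Crym and Nppc, with 4.76 CPM of S100b and 3.38 CPM of Agt, held 34.7% to 49.4% of the members of a library on day 4 and 0% to 4.08% on day 10, and that of Hoxd4 and Tmsb15b2 had 122 of its 124 cells on day 10. Its part in the rise of S100b and of the genes that follow was not tested.

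Agt stood at 0.498, 2.48 and 3.31 CPM on day 4, at 7.75, 32.5 and 6.44 CPM on day 7 and at 5.19, 26.2 and 13.4 CPM on day 10, again without overlap between day 4 and the later days (day 10, 3.13 ± 0.54, adjusted p = 0.0190). Ntsr2, a neurotensin receptor of astrocytes, stood at 0.124, 2.11 and 0 CPM on day 4, at 5.77, 18.3 and 2.44 CPM on day 7 and at 4.41, 11.9 and 0.853 CPM on day 10 (day 7, 3.79 ± 0.54, adjusted p = 0.0292, and day 10, 3.07 ± 0.56, adjusted p = 0.0249). For Ntsr2 day 7 lay above day 4 without overlap while day 10 overlapped day 4, and its total was 165 UMI. Apoe stood at 1049, 1342 and 1389 CPM on day 4, at 3076, 3456 and 1684 CPM on day 7 and at 3342, 4830 and 2465 CPM on day 10 (day 10, 1.46 ± 0.25, adjusted p = 0.0171).

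Some of these calls were lost when doublets or sub-clusters were left out, and the folds kept their sign and most of their size. Whether the number or the kind of the cells left out mattered was not tested. Without doublets 1 gene passed on day 7, Tagln3, and on day 10 S100b and Agt passed, while Ntsr2 (log2 fold 2.41, adjusted p = 0.105) and Apoe (1.13, adjusted p = 0.0772) did not. Without the 3 sub-clusters led by other classes S100b and Apoe passed on day 10, and Agt (3.16, adjusted p = 0.0596) and Ntsr2 (2.74, adjusted p = 0.141) did not. Over the 15 settings the calls of day 10 held in 10 for Agt, 9 for Apoe and 8 for Ntsr2.

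Most of these genes rose in the other cells of the same libraries as well. On day 10 the log2 fold was 2.49 for S100b, 3.0 for Agt and 1.85 for Apoe in the other cells, where all 3 passed. Ntsr2 did not pass there on day 10 (-0.20, adjusted p = 0.763) or on day 7 (-0.66, adjusted p = 0.360). Of the 343 genes called on day 10, 310 (90.4%) were called with the same direction in the other cells, where 23.9% of 18904 genes were called, and of the 62 of day 7 the count was 49 (79%), where 10.5% were called. The summed macrophage markers stood at 53.1 to 312.4 CPM on day 4 and at 521.5 to 2020 CPM on day 10 in the astrocyte-like cells, and Apoe stood at 4980 CPM in the pooled macrophage-like cells. Their part in the rise of Apoe and the other genes was not tested. The difference between the folds of both sets of cells was not tested.

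Other genes that rose on day 10 included genes of fat cells, of macrophages and genes that shifted as much in the other cells. Apoc1, a lipoprotein gene, stood at 0.498, 0.867 and 1.42 CPM in WT, Per1-/- and Per2-/- on day 4 and at 3.11, 343.5 and 43.3 CPM on day 10 (7.03 ± 1.07, adjusted p = 0.0103). Rbp4, a retinol carrier, stood at 0.779, 199.9 and 130.9 CPM on day 10, and on day 4 the highest of the 3 libraries held 0.124 CPM. Adipoq had 0 UMI in the members of all 3 libraries of day 4 and 0.779, 371.0 and 29.0 CPM on day 10. Without the sub-cluster of Scd1, Agpat2 and Lpl Apoc1 did not pass (2.46, adjusted p = 0.103), and Rbp4 and Adipoq fell under the filter on low counts. Rnasek, Fdx1l, Atp6v0c, Mrpl53, Hgs and Cpne1 rose by log2 folds of 5.55 to 6.95 and Ptp4a1 fell by 7.0, and in the other cells Rnasek differed by 6.51, Atp6v0c by 6.51 and Ptp4a1 by -6.35. All 12 macrophage markers were higher on day 10 and 11 of 12 on day 7, with the sums given above. Without doublets 11 were tested, and 11 passed on day 10 and 0 on day 7, although their median log2 folds, 5.18 and 3.01, were above the 2.79 and 2.35 of all members. Without the 3 sub-clusters led by other classes 8 were tested and 0 passed on either day, with median log2 folds of 2.71 on day 10 and 1.72 on day 7. Macrophage markers helped choose the cells left out there, so nothing is read from that loss.

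Fewer genes fell than rose, 51 on day 10 (0.376%), and most of those described here lost their call in some settings. Tnc, a matrix protein of radial glia, stood at 382.7, 398.0 and 274.4 CPM in WT, Per1-/- and Per2-/- on day 4, at 235.9, 166.5 and 147.2 CPM on day 7 and at 171.8, 73.1 and 158.9 CPM on day 10, with no overlap between days 4 and 10 (-1.36 ± 0.29, adjusted p = 0.0473). Mcm3, a replication licensing gene, fell by 0.92 ± 0.16 on day 10 (adjusted p = 0.0201), the 1 of 30 cell cycle genes that passed. Crabp1 fell by 1.57 ± 0.15 on day 7 (adjusted p = 0.00739) and by 1.63 ± 0.15 on day 10 (adjusted p = 0.000778). Wnt4, a signalling ligand, fell by 2.53 ± 0.41 on day 10 (adjusted p = 0.0135). Gdf15, a stress-induced hormone gene, fell by 2.92 ± 0.41 on day 7 (adjusted p = 0.0273) and by 2.60 ± 0.42 on day 10 (adjusted p = 0.0139). Shh fell from 7.72, 1.61 and 0.944 CPM on day 4 to 0.519, 0 and 0 CPM on day 10 (adjusted p = 0.0218), and the sub-cluster of Wif1 and Ntn1 held 71 of its UMI. The calls of day 10 held in 13 of 15 settings for Wnt4, 11 of 15 for Mcm3, 9 of 15 for Gdf15, 7 of 15 for Tnc and 5 of 13 for Shh, and each of these 5 genes was lower in all settings that gave a value. In the other cells of the same libraries Tnc (-1.51, adjusted p = 0.00709), Wnt4 (-2.66, adjusted p = 0.000931) and Crabp1 (-1.42, adjusted p = 0.00256) were lower on day 10 as well, while Mcm3 (-0.12, adjusted p = 0.523), Gdf15 (0.78, adjusted p = 0.202) and Shh (1.18, adjusted p = 0.347) did not pass there. On day 7 the call of Crabp1 held in 12 of 15 settings and that of Gdf15 in 7, and neither passed without doublets (-1.40, adjusted p = 0.300, and -3.14, adjusted p = 0.184). On day 10 without doublets Gdf15 (-2.72, adjusted p = 0.0629) and Shh (-4.18, adjusted p = 0.0870) did not pass, and without the 3 sub-clusters Tnc (-1.29, adjusted p = 0.0807), Gdf15 (-2.53, adjusted p = 0.0558) and Shh (-4.16, adjusted p = 0.0973) did not.

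Of 12 tested genes of the A1 reactive list 1 passed on day 10, where 2.53% of all genes did: C3, a complement gene, with 0.249, 1.24 and 1.89 CPM on day 4, 7.26, 92.0 and 3.33 CPM on day 7 and 4.93, 38.7 and 15.1 CPM on day 10 (4.91 ± 0.97, adjusted p = 0.0345). It did not pass on day 7 (4.93 ± 0.94, adjusted p = 0.0793), and on day 10 it did not pass without doublets, where its log2 fold was 4.92 (adjusted p = 0.0683), without the 3 sub-clusters (5.54, adjusted p = 0.0664) or without that of Scd1, Agpat2 and Lpl (3.87, adjusted p = 0.102). It was higher on day 10 in the other cells too (3.25, adjusted p = 0.00476). Of the pan-reactive list 0 of 11 genes passed on day 10 in edgeR, where 3 had an unadjusted p under 0.05 and DESeq2 called 3, and of all 13555 genes 2201 had one and DESeq2 called 556. Sox2 stood at 138.4 to 177.2 CPM on day 4 and 99.9 to 171.7 CPM on day 10 (-0.09 ± 0.24, adjusted p = 0.890), and Pax6 differed by -0.29 ± 0.30 (adjusted p = 0.688). Fabp7 differed by -0.72 ± 0.39 (adjusted p = 0.413) and was higher on day 10 in 1 of 3 genotypes.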

How the data were processed

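Single cells of 9 cultures (3 genotype labels, 3 days, 1 library each) were counted by 10x Genomics 3′ v3.1 chemistry. The deposited values are whole UMI counts per gene and cell that the authors made with Cell Ranger, version 4.0.0 for days 4 and 7 (31053 genes) and 6.0.0 for day 10 (32285 genes) per the file headers, whereas the submitters' processing notes name version 7.1 and build mm10. The 30406 gene identifiers common to all libraries were used, of which 597 carried another symbol on day 10.

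The astrocyte-like cells and the gene lists were chosen with earlier results of these data known. Cells were kept and chosen by the limits given in the report. Counts were summed per library and set of cells. Days and genotypes were compared with edgeR's quasi-likelihood test (genotype and day as additive factors, TMM, filterByExpr), and the astrocyte-like cells with other cells with the library as a factor, with Benjamini-Hochberg adjustment at 0.05. The genes of the rules stayed in the fits and in the adjustment, but were not counted or named among the genes tested. Since each genotype and day is 1 library, days served as replicates of a genotype and genotypes as replicates of a day, and p-values measure the spread that remains among these 9 libraries. Shares were compared by exact permutation within days or genotypes. With library totals of 126625215 to 353198559 UMI, intervals cover counting error only.

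Scrublet scores marked as doublets 0.8% of the barcodes per 1000 barcodes of a library, by rank (8442 cells). The number to mark was set from all barcodes of a library, while only cells within the limits were ranked. The members were clustered on 2000 variable genes, 20 components and 15 neighbours at resolution 0.5. The genes named were those of the lists that passed and, among genes that passed, were outside the rule and had at least 20 CPM in the higher group, the 10 with the largest fold in each direction that moved alike in every library or stratum. On simulated counts for Per1-/- against WT (13561 genes), 54% of 100 genes changed by a fold of 2 and 94% of 100 changed by a fold of 4 were recovered. There 11 unchanged genes were wrongly called. The simulated counts were drawn around the mean of each gene over libraries, with no mix of sub-clusters. These shares are therefore not the power of the real comparison. Alternatives were DESeq2, no filter on low counts, at least 4 rule genes, at least 5000 UMI, no doublets, each library left out, and, chosen after seeing the data, leaving out the 3 sub-clusters led by other classes and leaving out that of Scd1, Agpat2 and Lpl. Promoters were taken from RefSeq (GRCm38.p6). Tools were scanpy 1.11.5, leidenalg 0.10.2, scipy 1.17.1, numpy 2.4.6, pandas 2.3.3, matplotlib 3.10.9, Python 3.11.15, R 4.3.3, edgeR 4.0.16 and DESeq2 1.42.0. Results of a few genes are not reported here.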

Additional observations from a re-analysis of the deposited data

Results flagged for a closer look

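Outside the limits on UMI and mitochondrial share, 214 of 13604 barcodes also met the marker rule for astrocyte-like cells (1.57%), a signal in barcodes that no comparison used. Of these, 160 were from WT on day 10, where they were 2.90% of the 5510 barcodes outside the limits. The astrocyte-like share moved in opposite directions from day 4 to day 10 in the libraries labelled as knockouts: it changed by -1.40 percentage points in Per1-/- and by 0.496 percentage points in Per2-/-, and both later days lay below day 4 in Per1-/- and above it in Per2-/-. The difference between these changes was not tested.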

How the results depend on the processing

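DESeq2 called 249 genes between Per1-/- and WT (214 higher, 35 lower), 25 between Per2-/- and WT, 65 between both knockout labels, 215 on day 7 against day 4 and 556 on day 10 against day 4. Without a filter on low counts the numbers were 302, 30, 72, 246 and 692. With at least 4 rule genes 0 genes passed between Per2-/- and WT and 225 on day 10. Without doublets 2 genes passed between Per1-/- and WT, 0 between Per2-/- and WT and 1 on day 7 (Tagln3), and without the 3 sub-clusters led by other classes, an alternative chosen after seeing the data, 5, 0 and 1 (Tagln3), with 105 on day 10. Leaving out 1 library gave 14 (without WT day 7) to 320 (without Per1-/- day 4) genes between Per1-/- and WT, 0 to 3 between Per2-/- and WT, 0 to 102 (without Per1-/- day 4) between both knockout labels, 8 to 71 on day 7 and 167 to 383 on day 10, and 8512 to 9637, 7778 to 8326 and 9716 to 10119 against other, Schwann-like and neuron-like cells. The cause was not tested. The trend of the share over days turned to -0.0703 with at least 4 rule genes, to -0.0255 with at least 5000 UMI and to -0.355 without the sub-cluster of Scd1, Agpat2 and Lpl, also chosen after seeing the data (which left 112, 1, 0, 80 and 331 genes in the 5 comparisons above, and 0 lower in Per1-/-), and leaving out 1 library moved it from -0.219 (without WT day 10) to 0.271. The Per1-/- contrast of shares kept its sign in all of these alternatives, from -1.59 to -0.506 percentage points with 1 library left out. No paired analysis was possible because each genotype and day has 1 library, so that no replicate numbers pair samples; day was a factor in the genotype fits and library in those against other cells. Depth limits low genes in Per1-/- on day 10 most, where 37 cells were summed.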
